A study of Mus musculus with 10 samples.

Results

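HEB is an E-protein, a helix-loop-helix transcription factor encoded by Tcf12, and its binding was mapped by chromatin immunoprecipitation and sequencing in the mouse mammary epithelial line Comma-Dβ, used at passage 28. The cells had received 20 nM of a non-targeting control siRNA pool (siNT) or of an siRNA pool against Id4 (siID4) and were collected after 48 h; the labels list 3 HEB libraries for each siRNA and 4 input libraries, without siRNA or antibody, that serve both arms. The authors deposited 1 list of peak summits per siRNA, with 560 siNT and 1489 siID4 summits, so no value below has a replicate error and the read depth is unknown. The sites described here are the siNT-only summits, which had no siID4 summit within 200 bp on the same sequence. Summits on unplaced scaffolds, on chromosome 9 below 3.1 Mb and on chromosome 11 above 110 Mb were left out, which removed 139 siNT summits and kept 421. Of these 421, 208 were siNT-only, or 49.4% (95% exact binomial interval 44.5 to 54.3, counting error only), and 213 were shared. They are 208 of the 2049 summits in the series. The sites were chosen by their distance to siID4 summits, so that distance is given as a description with no test.

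E-proteins bind DNA as dimers at E-boxes, short sites of the form CANNTG. ID proteins, ID4 among them, lack the DNA-binding region and pair with E-proteins, and the resulting pairs do not bind E-boxes. In the mammary gland ID4 is known from the basal cells of the epithelium. The siNT-only sites are those listed while Id4 was not targeted. The label "only" refers to the lists: a peak that narrowly missed the authors' threshold in the siID4 cells is absent from that list in the same way as one with no signal.

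Among the siNT-only summits, 2 fell inside a RefSeq promoter window (250 bases before to 50 bases after a transcription start, GRCm38.p6) and 1 fell inside a miRNA hairpin. These 3 sequences are shown because they are the ones that hold the bases under a siNT-only summit; all are on the sense strand from 5′ to 3′, and capitals mark each CANNTG match. The S1pr2 window is chr9:20976744-20977043 (minus strand), the Mir6406 hairpin is chr11:68220892-68221011 (plus strand) and the Cd244a window is chr1:171558943-171559242 (plus strand).
S1pr2 promoter: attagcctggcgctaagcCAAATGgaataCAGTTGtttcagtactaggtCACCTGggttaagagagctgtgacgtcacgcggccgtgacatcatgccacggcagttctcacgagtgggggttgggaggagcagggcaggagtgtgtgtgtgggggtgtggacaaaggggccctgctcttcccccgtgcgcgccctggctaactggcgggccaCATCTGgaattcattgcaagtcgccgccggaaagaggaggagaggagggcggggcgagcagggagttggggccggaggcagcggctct
Mir6406 hairpin: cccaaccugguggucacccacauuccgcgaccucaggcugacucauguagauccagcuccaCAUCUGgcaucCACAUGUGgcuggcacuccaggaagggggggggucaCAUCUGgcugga
Cd244a promoter: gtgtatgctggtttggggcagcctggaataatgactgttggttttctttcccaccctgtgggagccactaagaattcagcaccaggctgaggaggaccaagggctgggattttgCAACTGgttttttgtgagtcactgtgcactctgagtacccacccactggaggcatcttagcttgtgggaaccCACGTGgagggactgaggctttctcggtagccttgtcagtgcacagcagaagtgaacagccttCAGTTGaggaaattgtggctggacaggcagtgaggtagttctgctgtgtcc

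The S1pr2 summit, at position 20976846 of chromosome 9, was base 198 of its window, 53 bp outside the annotated gene body. S1pr2 encodes a receptor for sphingosine 1-phosphate. Its window held 4 CANNTG matches; the nearest to the summit was CATCTG, 15 bp downstream, and the others, including CACCTG, lay 143 bp or more upstream. The Mir6406 hairpin lies within the Ntn1 gene. Its summit was base 68 of the 120 bases, 1 bp past a CATCTG (printed with U) and 5 bp before CACATG, which overlaps CATGTG. The mature miRNA, mmu-miR-6406, comes from bases 26 to 47 of the hairpin, upstream of the summit. Its sequence is given with the seed in capitals, to place it against the summit.
mmu-miR-6406: cGCGACCUcaggcugacucaug
The Cd244a summit was base 218 of its window, 26 bp from CACGTG and 32 bp from CAGTTG. Cd244a encodes a receptor of natural killer cells, and its summit had one of the lowest scores of the siNT list (1.33, rank 558 of 560).

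CANNTG is its own pattern on the opposite strand, and 72.3% of the 32851 promoter windows in the table held at least 1 match, with a median of 1. CATCTG, on either strand, was present in 17.2% of windows, CACCTG in 20.2%, CAGCTG in 16.3% and CACGTG in 7.15%. Each of the 3 siNT-only windows held a CANNTG match within 26 bp of the summit, and none held CAGCTG. Shared siNT summits fell in 6 promoter windows. Of these, the windows of the linker histone genes H1f2 and H1f3 and of Lrpprc held 0 CANNTG matches, that of H1f5 held 1, and those of Gm8883 and Pcolce, the gene of a procollagen-processing enhancer, held 5 and 7, with CAGCTG in both. The siID4-only summits had 1 such window, at Adcy7, with 4 matches. The nearest match was 13 bp from the summit in Gm8883, 8 bp in Pcolce and 20 bp in Adcy7. A match within 26 bp was thus not particular to the siNT-only windows. These matches are letters in a window and not shown to be bound sites, and 9 promoter windows are too few for a comparison of groups.

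**Figure D1:**
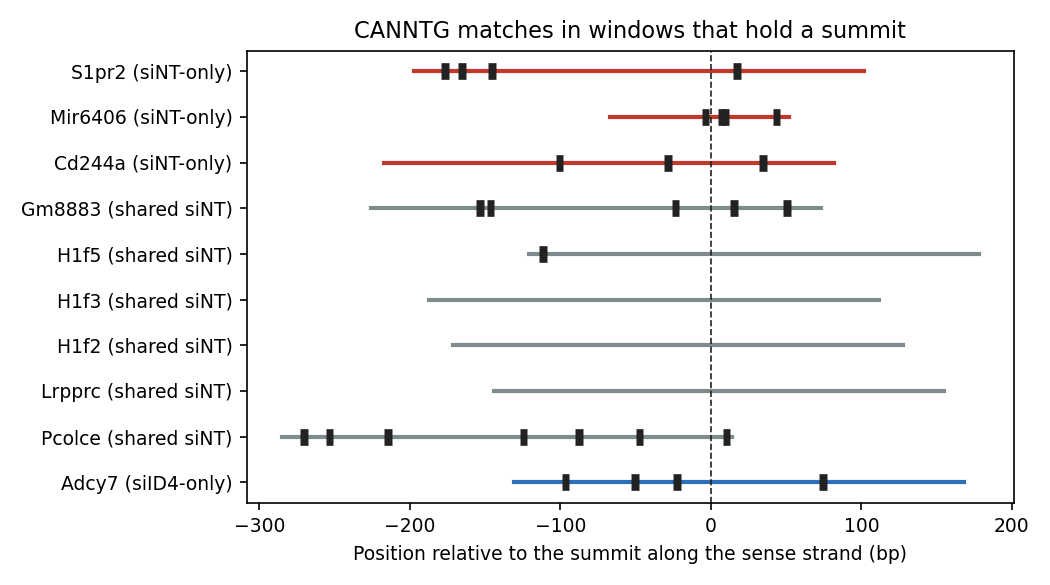
CANNTG matches (black blocks) in the 9 promoter windows and 1 miRNA hairpin that hold a summit, plotted by position relative to the summit (bp, sense strand; dashed line at the summit), with siNT-only windows in red, shared siNT windows in grey and the siID4-only window in blue. The S1pr2, Mir6406 and Cd244a windows each have a match within 26 bp of the summit. So do the shared Gm8883 and Pcolce windows and the siID4-only Adcy7 window, while H1f2, H1f3 and Lrpprc have no match.

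The score of a summit was read as a −log10 q value, so that a higher score means a smaller q, and it ranks summits within a list only. The siNT-only sites were mostly weak. Their scores ran from 1.32 to 31.3 with a median of 3.66 and an interquartile range of 2.57 to 6.82, whereas shared siNT summits had a median of 11.7 and an interquartile range of 6.89 to 21.4. Within the siNT list the median percentile was 29.9 for siNT-only and 69.5 for shared summits. Of the 10 highest-scoring siNT summits outside the left-out sequence, 0 were siNT-only (upper 95% exact limit 30.8%); of the 50 highest 3 were, and of the 100 highest 10 were. By decile of the score, the siNT-only share was 90.7% in the lowest decile (95% exact binomial interval 77.9 to 97.4), 45.2% in the fifth (29.8 to 61.3) and 2.38% in the highest (0.0603 to 12.6). In the siID4 list the 842 siID4-only summits had a median percentile of 42.1 (95% binomial interval of the median 39.9 to 45.4). The same interval for siNT-only summits in their list was 26.2 to 34.5. These percentiles depend on how much of its list a group makes up: 842 of 1489 summits for siID4-only, 208 of 560 for siNT-only. The 2 intervals therefore do not rank one group against the other. Median scores were 3.67 for siID4-only and 3.66 for siNT-only summits.

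**Figure D2:**
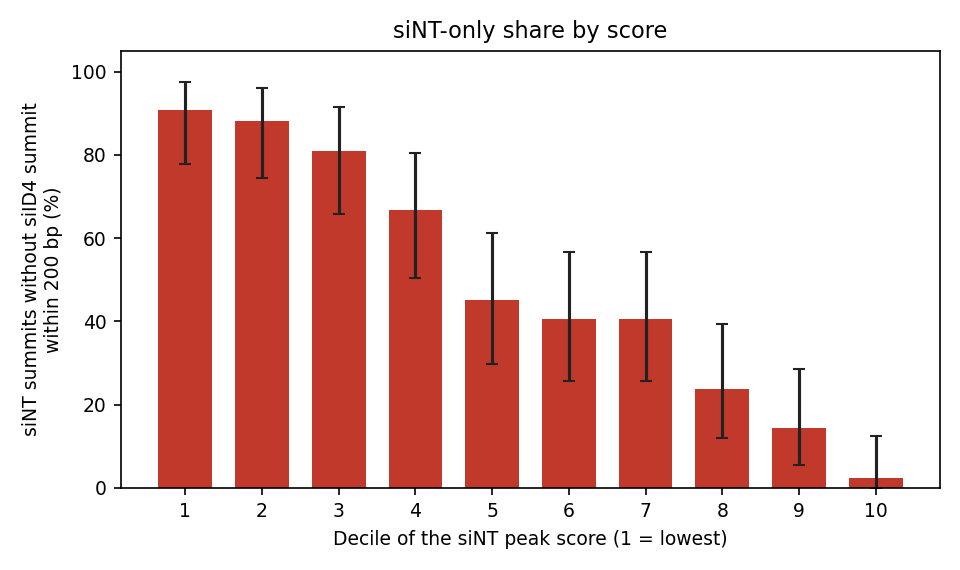
Share of siNT summits that had no siID4 summit within 200 bp (%), by decile of the siNT peak score (1 is the lowest); bars are shares of 42 or 43 summits and error bars are 95% exact binomial intervals. The share is 90.7% in the lowest decile and 2.38% in the highest.

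Many siNT-only sites had exactly the same score. Of the 208, 84 had a score that another siNT summit also held, to all digits deposited. Scores of 2.25, 2.57, 2.92, 3.28 and 3.66 were held by 6, 9, 6, 4 and 7 siNT-only summits, 32 in all. Outside the left-out sequence, 0 shared summits held them. The whole siNT list had 11 summits at 2.57, so some lay in the left-out sequence. Few shared summits scored this low: in the lowest 3 deciles, 39 of 43, 37 of 42 and 34 of 42 summits were siNT-only. The share of shared summits with a tied score is not given here. Scores of 5.31, 5.76, 7.15, 8.13 and 10.2 were held by 3 or 4 siNT-only summits each and also by 1 to 3 shared summits. The siNT-only summits linked to Fam13c, Pde4d and Dennd2a, for example, had the same score of 10.2, on chromosomes 10, 13 and 6. The read counts behind the scores are not analysed here.

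The distance to the nearest siID4 summit had a median of 119 kb and reached 44.4 Mb. An siID4 summit lay within 500 bp of 16 sites, between 500 and 1000 bp from 5, between 1000 and 10000 bp from 33 and between 10000 and 100000 bp from 43; it lay farther than that from 111 sites, for 40 of them beyond 1000000 bp. The 16 sites in the first band had a median score of 7.53 with scores as low as 1.41, and the median was 3.28 for the 71 sites between 100000 and 1000000 bp. The siNT-only sites just beyond the limit were inside Dnah12 (206 bp), inside Sfi1 (215 bp), 30533 bp outside Sfi1 (241 bp), at 2700054A10Rik, 164283 bp from the nearest coding gene, Tcte2 (219 bp), and near Gm40469 (226 bp). The shared sites just inside it were near Zfp992 (187 bp), H1f4 (185 bp) and Gm45988 (182 bp).

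The sites with high scores included such near neighbours, isolated positions and some that were neither. The highest, inside Gm11567, was neither, with its nearest siID4 summit 69.4 kb away. Of the 27 siNT-only summits with a score of at least 10, 16 had an siID4 summit within 10 kb and 11 did not. Muc6, a gel-forming mucin gene on chromosome 7, shows the first kind: the siNT summit inside it, at position 141638814, scored 17.2, and an siID4 summit 263 bp away scored 19.4 in its own list. A site inside Atg4a, an autophagy protease gene on the X chromosome, scored 12.9 and had an siID4 summit 857 bp away with a score of 5.60. In contrast, 106 of the 208 sites had no other summit of either list within 100 kb. These isolated sites had a median score of 3.31 and 6 of them scored at least 10, while the other 102 sites had a median of 4.24 and 21 scored at least 10.

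**Figure D3:**
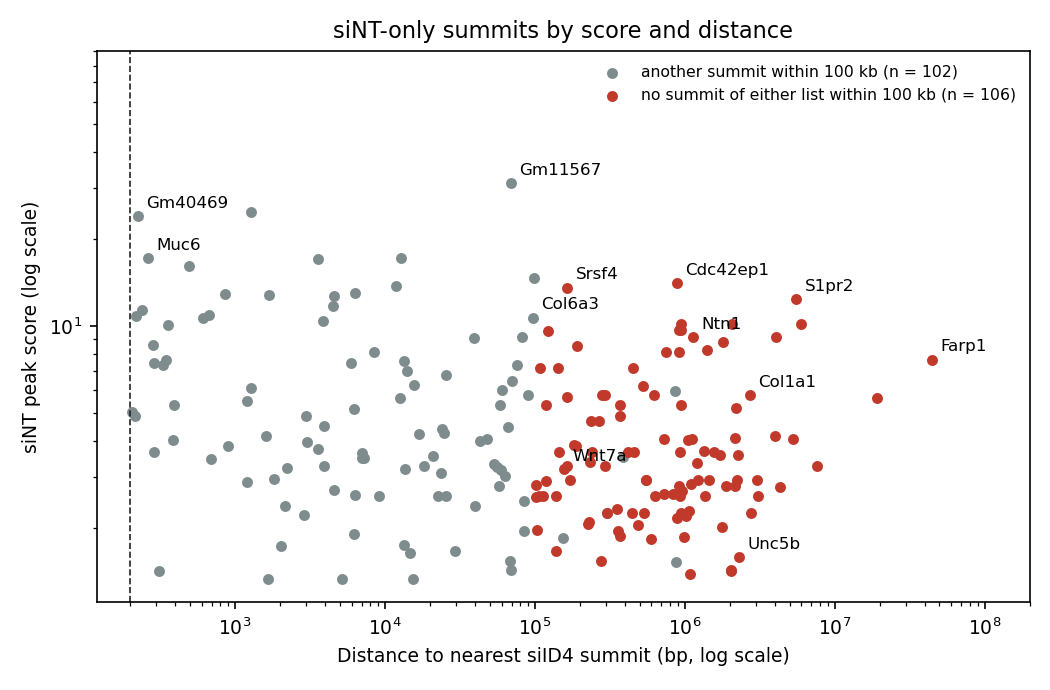
Peak score in the siNT list (log scale) against the distance to the nearest siID4 summit (bp, log scale) for the 208 siNT-only summits; red points have no summit of either list within 100 kb (n = 106), grey points have one (n = 102), and the dashed line is the limit of 200 bp. The highest scores, near Gm11567, Gm21119, Gm40469 and Muc6, are grey, and Cdc42ep1, Srsf4 and S1pr2 lead the red points.

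Of the 208 sites, 74 (35.6%) lay inside a protein-coding gene and 184 (88.5%) lay within 100000 bp of one. Both shares were near those of shared siNT summits, 34.7% and 89.2%. Of siID4-only summits, 40.6% lay inside a coding gene. The 184 sites were linked to 165 genes, which is 0.753% of the 21900 protein-coding genes in the RefSeq table. Exons and introns are not distinguished in that table. A gene with a siNT-only site was often also linked to an siID4 summit. Of the 165 genes, 61 (37.0%, 95% exact binomial interval 29.6 to 44.8) were linked to at least 1, against 3.47% of all protein-coding genes. These links include siID4 summits close to the site, and 54 of the 208 sites had one within 10000 bp. The contrast thus partly restates the distances to siID4 summits given above. The choice of sites set only their lower limit, 200 bp. The contrast was not tested. The remaining 104 genes, with 106 siNT-only sites, were not the nearest coding gene of any siID4 summit within 100000 bp of them. This does not exclude an siID4 summit nearby that another gene is closer to, or one farther away.

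Only 8 sites with a score of at least 10 were linked to a gene that had no siID4 summit linked to it. The highest lay inside Gm11567, a predicted gene, at position 99879573 of chromosome 11 with a score of 31.3 (rank 41 of 560), and the nearest siID4 summit was 69.4 kb away with a score of 4.34. A summit 9596 bp from Cdc42ep1, an effector gene of the GTPase Cdc42, scored 14.1 at position 78833051 of chromosome 15, with the nearest siID4 summit 883 kb away. A summit inside Srsf4, a splicing factor gene, scored 13.6 at position 131896468 of chromosome 4, and the nearest siID4 summit was 164 kb away. The S1pr2 promoter site scored 12.4 (rank 162), and no siID4 summit lay within 5.54 Mb of it. The site near Col6a3 scored 10.7. The other 3 were the sites of equal score, of which 1 lay 50537 bp outside Pde4d, a cAMP phosphodiesterase gene, with the nearest siID4 summit 5.98 Mb away, and the others inside Fam13c and Dennd2a; Fam13c and Dennd2a were named after their values were seen.

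The sites farthest from any siID4 summit were not the strongest. A summit inside Farp1 scored 7.64 at position 121104973 of chromosome 14, 44.4 Mb from the nearest siID4 summit. A summit 96248 bp from Pls3, the gene of an actin-bundling plastin, on the X chromosome scored 5.60 and was 19.3 Mb from the nearest. A summit 1318 bp from Ctrb1, a chymotrypsinogen gene, scored 3.28 and was 7.67 Mb away.

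Few genes of the mammary and pathway lists were linked to a siNT-only site, though the share was above that of all protein-coding genes. Of 470 genes in 20 lists, 9 were linked (1.91%, against 0.753% of all protein-coding genes), in 6 lists. Because these lists were chosen with earlier results known, the difference from the background is a description only. Of 58 matrix genes, 3 collagen genes were linked. Col6a3 encodes a chain of the microfibrillar collagen VI, and its site was 16490 bp outside the gene (chromosome 1, position 90750370), with an siID4 summit 97.6 kb away that scored 16.3. The site near Col16a1, a fibril-associated collagen gene, was 3495 bp outside it and inside the predicted gene Gm12963 (chromosome 4, position 130044322); it scored 9.14, and the nearest siID4 summit was 81.9 kb away. The site near Col1a1, which encodes a chain of the fibrillar collagen I, was 7080 bp outside it and inside the predicted gene Gm46293 (chromosome 11, position 94929144); it scored 5.76, and the nearest siID4 summit was 2.73 Mb away. None of these 3 was linked to an siID4 summit, whereas 9 genes of the matrix list were. An siID4 summit nevertheless lay 0.0269 Mb from Col16a1, where another coding gene was closer to it.

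Of 30 guidance genes, 2 were linked, and they form a ligand and receptor pair. Ntn1 encodes the secreted cue netrin-1 and contains the Mir6406 hairpin; its summit, at position 68220959 of chromosome 11, scored 9.14 (rank 220) and lay 1.14 Mb from the nearest siID4 summit. Unc5b encodes a netrin receptor; its site, 32674 bp outside the gene (chromosome 10, position 60864255), scored 1.58 (rank 541). Neither gene was linked to an siID4 summit, whereas 2 other guidance genes, Sema5a and Nav1, were. Of 41 Wnt pathway genes, the ligand gene Wnt7a had a site 6208 bp away with a score of 3.18. On that list 4 genes had an siID4 link, Wnt7a not among them. A site inside Wnt9a, a Wnt ligand gene that was not on the list and was named after its values were seen, scored 7.32 at position 59308370 of chromosome 11. Of 28 TGF-beta and BMP genes, Tgfbr3, the gene of the co-receptor betaglycan, contained a site with a score of 7.15; the same gene also had an siID4 link, and the nearest siID4 summit was 109 kb away.

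Of 35 genes of YAP signalling, adhesion and actin, Rnd3 had a site 70725 bp away (score 8.13). Of 30 luminal genes, Epcam, an epithelial adhesion molecule gene, had a site 64754 bp away (score 5.78), and 0 of 22 basal genes had one. The other lists had 0 linked genes: 39 helix-loop-helix and ID genes, 3 ETO corepressor genes, 22 Notch genes, 20 contractile genes, 16 regulators of the epithelial-mesenchymal transition, 21 early-response genes, 27 cell cycle genes, 18 histone genes, 22 ribosomal protein genes, 17 neuronal genes and the markers of immune (15), endothelial (11) and fibroblast (11) cells. Of the histone list, 4 genes had a shared siNT summit. The nearest siNT-only site was 18.5 Mb from Id4 and 14.4 Mb from Tcf12. Neither the cell type nor the knockdown was checked from marker levels, since summit lists contain no expression data.

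Part of the siNT-only sites lay in crowded stretches. Chaining siNT-only summits of 1 chromosome that were within 500 kb of each other gave 8 stretches with 3 or more summits, holding 40 of the 208 sites; this grouping was made after the data were seen. In these stretches 23 of the 40 sites had an siID4 summit within 10 kb and 12 scored at least 10. Of the other 168 sites, 31 had an siID4 summit that near and 15 scored at least 10. The median distance to an siID4 summit was 6.09 kb in the stretches and 232 kb elsewhere.

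The largest stretch ran from 20105821 to 20827700 of chromosome 8, around the predicted genes Gm15319, Gm21119 and Gm40469 and near the defensin gene Defb33. It held 10 siNT-only, 8 shared siNT and 22 siID4 summits. The siNT-only summits there scored between 1.64 and 24.8, and 6 of the 27 siNT-only sites with a score of at least 10 were among them. All 10 had an siID4 summit within 14.7 kb. A site near Gm40469, at position 20514693, scored 24.0, and the siID4 summit 226 bp from it scored 3.56. Another siID4 summit close by, at position 20514101, scored 14.0. It was shared with a siNT summit at position 20514104 that scored 2.52. A site nearest to Gm15319, at position 20437660, scored 16.1, and an siID4 summit 491 bp away, which was shared with another siNT summit, scored 10.7. A second stretch, from 14957223 to 15602732 of chromosome 5, held 9 siNT-only, 4 shared siNT and 16 siID4 summits around Gm17019, Gm21149, Gm21083 and Speer4d, with siNT-only scores from 1.32 to 13.7. Sequence similarity between these genes and mappability were not analysed here.

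**Figure D4:**
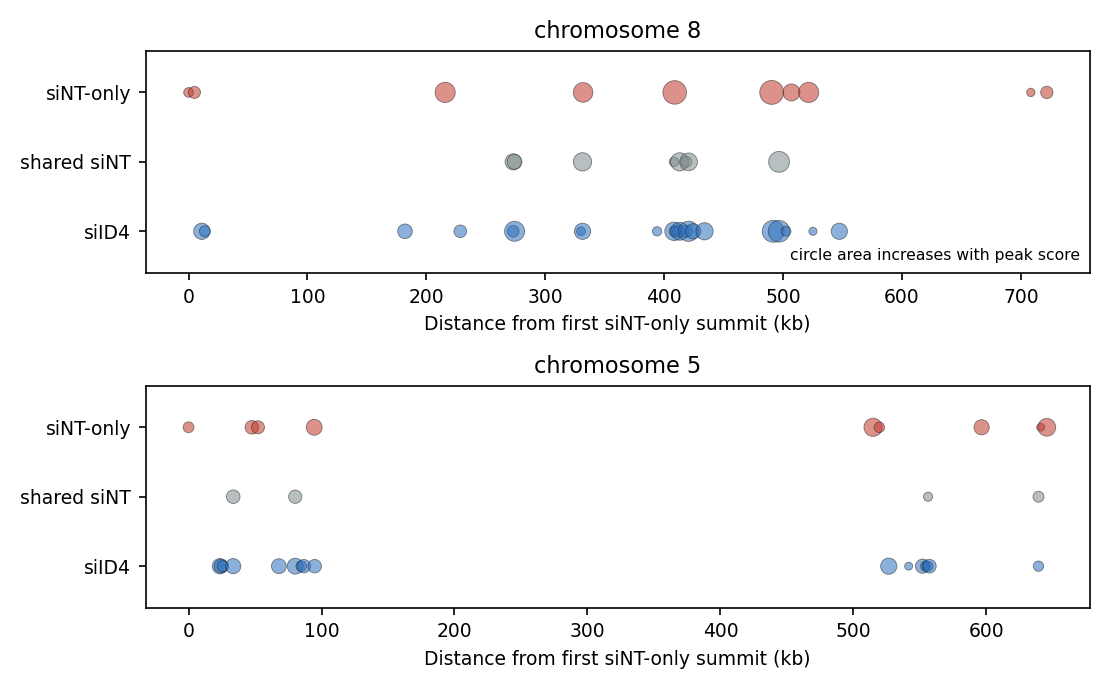
Summits along the 2 stretches with the most siNT-only sites, by distance from the first siNT-only summit (kb): siNT-only sites in red, shared siNT sites in grey and all siID4 summits in blue, with circle area increasing with the peak score. The chromosome 8 stretch holds 10 siNT-only and 22 siID4 summits and the chromosome 5 stretch 9 and 16, and the median distance of a siNT-only site to an siID4 summit is 4.04 kb and 7.05 kb.

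Smaller stretches lay at Sfi1, a centrosomal protein gene near the start of chromosome 11 (3 siNT-only and 5 siID4 summits), around Sp110 on chromosome 1 (4 and 13) and near Btbd35f29 on the X chromosome (3 and 6). Stretches on chromosome 12 (4 and 3) and chromosome 15 (3 and 2) held 0 shared siNT summits. Their median distances to an siID4 summit were 130 kb and 84.75 kb. A stretch of 508 kb on chromosome 5 was the only 1 of the 8 with 0 siID4 summits in its span. It held siNT-only summits 14129 bp from Fgfr3, a fibroblast growth factor receptor gene, near Nsd2, a histone methyltransferase gene, near Nat8l and inside Zfyve28, and 0 shared siNT and 0 siID4 summits. Its 4 summits scored between 2.57 and 5.76, and these 4 genes were named after their values were seen. Their median distance to an siID4 summit was 190 kb. The shortest, 59.5 kb, was that of the site inside Zfyve28, a gene that also had an siID4 link. Of the 165 linked genes, 16 had 2 or 3 siNT-only sites, and Sfi1, Gm17019 and Gm21119 had 3. Btbd35f5 and Gm38702 were the only 2 of these 16 with no siID4 link.

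Chromosome 5 held more siNT-only sites than any other chromosome, 52 of 208 (25%), whereas it held 7.98% of shared siNT summits and 22.8% of siID4-only summits. Of its 69 siNT summits, 75.4% were siNT-only (95% exact binomial interval 63.5 to 84.9), against 43.3% (37.7 to 49.0) on chromosomes other than 5 and 15. Among summits at or below the median score of 6.97, the siNT-only share was 84.6% on chromosome 5 (71.9 to 93.1), 82.6% on chromosome 15 (61.2 to 95.0; 19 of 23 summits) and 69.1% on the remaining chromosomes (60.6 to 76.8). Above it the shares were 47.1% (23.0 to 72.2; 8 of 17 summits), 11.8% (1.46 to 36.4; 2 of 17 summits) and 23.3% (17.3 to 30.2). Chromosome 15 held 21 sites, and 52.5% of its 40 siNT summits were siNT-only. Chromosome 3 held 2 siNT-only sites among 14 siNT summits and chromosome 13 held 2 among 11. These shares were not tested, and copy number and input coverage were not analysed here.

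**Figure D5:**
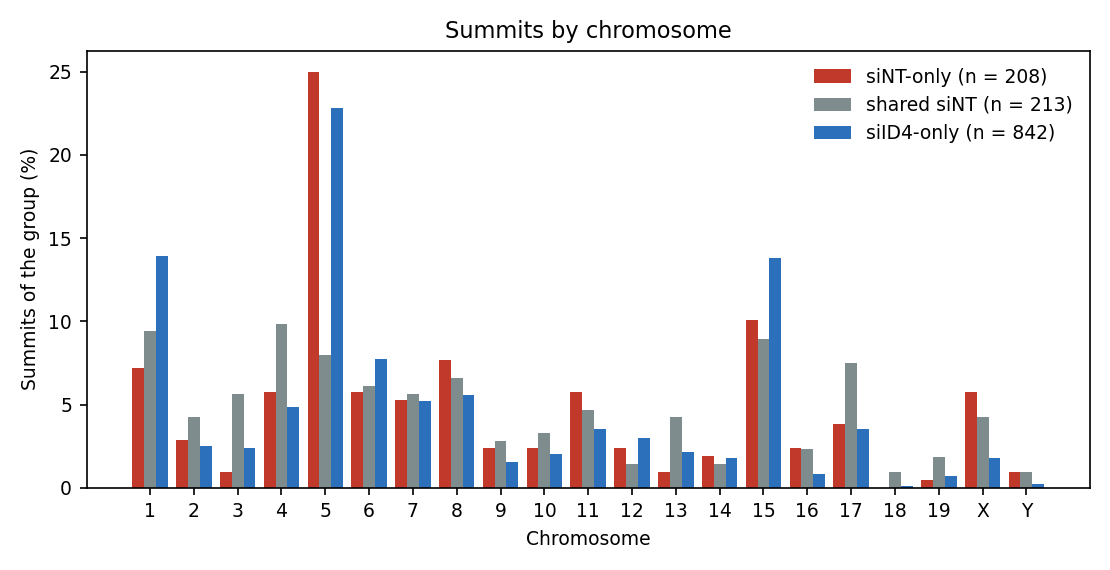
Share of the summits of each group on each chromosome (%), for siNT-only (red, n = 208), shared siNT (grey, n = 213) and siID4-only summits (blue, n = 842), left-out sequence excluded. Chromosome 5 holds 25% of siNT-only and 22.8% of siID4-only summits but 7.98% of shared siNT summits.

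The position relative to gene ends was not used to choose the sites and was compared with both other groups. Either end of a protein-coding gene was at most 1000 bp from 9 of 208 siNT-only sites (4.33%, 95% exact binomial interval 2.00 to 8.05), from 17 of 213 shared siNT summits (7.98%, 4.72 to 12.5) and from 19 of 842 siID4-only summits (2.26%, 1.36 to 3.50). The siNT-only share did not pass the test against the shared one (two-sided Fisher's exact test, odds ratio 0.521, adjusted p = 0.156) or against the siID4-only one (odds ratio 1.96, adjusted p = 0.156, same exact test), with p-values adjusted over the 2 contrasts. With ends within 500 bp the second contrast passed, at 3.37% against 0.95% (odds ratio 3.63; Fisher's exact test, adjusted p = 0.0329). Summits are not replicates, and 9 sites limit what these tests can show.

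These 9 sites were at S1pr2, Cd244a and Gm11567, described above, and at 5 further genes. Gm21149 on chromosome 5 had 2 of them, at opposite ends. The site inside the gene, 341 bp from an end, scored 13.7, and the site 251 bp outside it scored 3.47. Slu7, a pre-mRNA splicing factor gene on chromosome 11, had a site inside it 602 bp from an end (score 4.15), with the nearest siID4 summit 4.03 Mb away. Iqcf6 on chromosome 9 had one 486 bp outside the gene (score 3.56). Sites 623 bp from LOC100504180 and inside Gm6588, 473 bp from an end, scored 2.21 and 1.33. Of the 9, S1pr2, Slu7 and Iqcf6 lay over 1 Mb from any siID4 summit.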

How the data were processed

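Reads were processed with SAMtools on build mm10, per the submitters' processing notes. Which aligner and peak caller were used, at which threshold, and whether the 3 libraries of an siRNA were pooled is not given in the sources used here. The authors deposited 1 file of 1-bp peak summits per siRNA with a score per peak, read here from its layout as −log10 of a q value, since its minimum was 1.32 (siNT) and 1.31 (siID4), just above 1.30, which is −log10 of 0.05. The scores are the authors' own and rank summits within a list.

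The members and gene lists were chosen with earlier results of these data known. Position was the end coordinate of each row (1-based). Gene positions were taken from RefSeq (GRCm38.p6), and each summit was linked to its closest protein-coding gene if at most 100000 bp from it, ties going to the nearer end. Every gene of the lists matched a symbol. Named genes were those at the 15 highest linked sites, at gene ends (up to 12), on a list, with 2 or more sites, or at the 5 nearest and 5 farthest siID4 summits, with Id4 and Tcf12; other genes, at sites that illustrate a band, tie or stretch, were named after their values were seen. Intervals are Clopper-Pearson (95%). Gene ends were compared with Fisher's exact test and Benjamini-Hochberg adjustment (SciPy 1.17.1, statsmodels 0.14.6); the scripts were tested on simulated positions. Without a genome sequence the planned E-box test over all summits was not run; motifs were read only in RefSeq promoter and miRNA sequences. Library depth is unknown, so precision is limited to counting error over summits.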

Additional observations from a re-analysis of the deposited data

How the results depend on the processing

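The number of siNT-only sites (208) and of linked sites (184) fell to 53 and 50 with siNT scores above the median of the list, and to 76 and 71 with scores of at least 5; the siNT-only share of the summits that remain fell from 49.4% to 24.5% and 29.1%, and the cause was not tested. Both counts stayed within 1.5 times with other sharing distances (100 to 2000 bp), with summits within 500 bp merged and with the left-out sequence put back. So did the number of sites with a siID4 score limit and the number of linked sites with other link distances, the settings run for each. The share at gene ends, 4.33%, was 9.62% with ends within 3000 bp and 11.1% with the ends of all annotated genes, as wider or more ends count, and 2.40% with coding transcription start sites only. The odds ratio against siID4-only summits passed only with ends within 500 bp (3.63); the cause was not tested. Of 68 alternative values, 61 stayed on the same side of their limits. No value changed direction.

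No paired analysis was possible because the deposited lists hold no values per library, and for the same reason no library was left out. The E-box alternatives were not run without a genome sequence.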
